A study of Mus musculus with 9 samples.

Results

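The genes described here are the hepatic metallothioneins Mt1 and Mt2 and the glucocorticoid response genes Fkbp5, Tsc22d3 and Sgk1, 5 of the 55335 genes in the expression table. They were chosen by symbol, and each symbol matched a single Ensembl identifier of the table. Liver RNA of 9 male offspring aged 20 weeks was sequenced after a fast of 4 h, 3 mice in each of 3 groups. All were B6D2F2 mice on a chow diet. NC-chow mice (mice 1, 5 and 6) came from natural pregnancies, IVF-chow mice (2, 3 and 4) from embryos fertilised in vitro and transferred fresh, and FET-chow mice (2, 3 and 4) from such embryos that were slowly frozen, thawed and then transferred. The oocytes fertilised in vitro came from superovulated females, and the recipients of the transferred embryos were pseudopregnant ICR females. The superovulation, the fertilisation, the culture and the recipient therefore cannot be told apart in a comparison with NC-chow mice. The sources used here do not say which mice were littermates, so the p-values measure the spread between these mice.

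Metallothioneins are small cysteine-rich proteins that bind zinc and copper, and the liver is their main site of synthesis. Their transcription rises when the metal-sensing factor MTF1 binds metal response elements in their promoters, and glucocorticoids and inflammatory cytokines also raise it. Glucocorticoids act through the receptor Nr3c1, which is held by heat shock protein 90 and its co-chaperones until the hormone binds, and which then acts at glucocorticoid response elements. Fkbp5, Tsc22d3 and Sgk1 are widely used readouts of that receptor, and the circulating hormone follows a daily rhythm and rises with fasting and stress.

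Mt1 and Mt2 are neighbours on chromosome 8, and because the values of the pair are set side by side below, their promoters are shown with the metal response element core in capitals. The sequences are RefSeq windows of GRCm38.p6 on the plus strand, each running 5′ to 3′ across the start of the gene. The core was searched as TGCACNC or TGCGCNC on both strands, so that a capital run ending in TGTGCA or TGCGCA is a match on the minus strand.
Mt1, chr8:94178839-94179138: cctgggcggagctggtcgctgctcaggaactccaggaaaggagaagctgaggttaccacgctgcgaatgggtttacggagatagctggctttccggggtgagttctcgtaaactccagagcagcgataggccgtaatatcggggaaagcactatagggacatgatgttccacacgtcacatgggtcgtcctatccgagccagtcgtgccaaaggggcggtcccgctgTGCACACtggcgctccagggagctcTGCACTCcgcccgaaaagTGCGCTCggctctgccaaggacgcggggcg
Mt2, chr8:94172368-94172667: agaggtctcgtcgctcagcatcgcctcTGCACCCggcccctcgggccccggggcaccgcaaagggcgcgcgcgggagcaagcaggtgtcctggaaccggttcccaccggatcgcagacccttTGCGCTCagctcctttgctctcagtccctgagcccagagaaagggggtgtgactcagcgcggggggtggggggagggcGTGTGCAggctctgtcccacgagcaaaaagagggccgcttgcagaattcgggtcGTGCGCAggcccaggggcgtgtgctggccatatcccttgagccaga
The Mt1 window held 3 matches and the Mt2 window 4. Of 32851 RefSeq promoter windows of the same length, 25.7% held at least 1 match, 1.97% held at least as many as Mt1 and 0.517% at least as many as Mt2. Neither window held the glucocorticoid half-site AGAACA on either strand, which 19% of all windows held. Of the other members, Fkbp5 had 1 window and Tsc22d3 3 windows, none with the metal core, and 1 of the 6 windows of Sgk1 had it.

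The full palindrome of the glucocorticoid response element, searched as AGAACA and TGTTCT with 3 bases between them, occurred in 3 of the 32851 windows, which is 0.00913%. One of them was a promoter of Sgk1, and the stretch around the palindrome, in capitals, is shown because it is the only such match among the 12 windows of the members. It lies on the plus strand of GRCm38.p6.
Sgk1, chr10:21993676-21993740: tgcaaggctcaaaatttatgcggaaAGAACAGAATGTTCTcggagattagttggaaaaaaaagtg
A half-site was found in 1 of the 3 windows of Tsc22d3, in 3 of the 6 windows of Sgk1 and in none of the Fkbp5 window. A match describes these letters only, and nothing is drawn from a window without one. No binding was measured in these livers.

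The gene models, from GENCODE vM21 on GRCm38, place Mt2 (ENSMUSG00000031762) at chr8:94172664-94173568 and Mt1 (ENSMUSG00000031765) at chr8:94179082-94180327, both on the plus strand and 5513 bases apart. Fkbp5 (ENSMUSG00000024222) lies at chr17:28399094-28517527 on the minus strand, Tsc22d3 (ENSMUSG00000031431) at chrX:140539528-140600659 on the minus strand and Sgk1 (ENSMUSG00000019970) at chr10:21882184-21999903 on the plus strand. All are protein-coding. Expression is given as FPKM, fragments scaled to the length of the transcript and to the fragments mapped in the library, as the authors deposited it.

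The libraries differed in ways that touch every member. Low FPKM values fall on steps worth 1 fragment each, and from these steps the depth was estimated at 6640000 to 13370000 mapped fragments in NC-chow mice, 3900000 to 8430000 in IVF-chow mice and 2020000 to 2940000 in FET-chow mice. The FET-chow depths lay below those of all other mice, so depth and group cannot be told apart in the comparisons with FET-chow mice, while the NC-chow and IVF-chow depths overlapped. These depths are point estimates, and no error was computed for them. Between 3.49% (NC-chow mouse 5) and 61.9% (IVF-chow mouse 2) of all FPKM lay in 3 noncoding entries. The FPKM summed over nuclear protein-coding genes ran from 39170 in IVF-chow mouse 2 to 230355 in IVF-chow mouse 4. Nuclear protein-coding genes above 0 numbered 10275 to 14085 in NC-chow mice, 11602 to 13588 in IVF-chow mice and 6895 to 10561 in FET-chow mice. The sheet numbers in the labels of NC-chow mice 5 and 6 lie apart from those of the other 7 mice. The libraries carried the defining transcripts of hepatocytes, whose 7 markers in the table summed to 3420 FPKM or more in every mouse. In liver tissue, fewer cells of a type and less RNA per cell cannot be told apart.

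Mt1 was measured in every mouse and ranged widely within the groups. Its level was 76.4, 7.01 and 16.3 FPKM in NC-chow mice 1, 5 and 6. The IVF-chow mice 2, 3 and 4 had 1.13, 10.7 and 49.9 FPKM, and the FET-chow mice 2, 3 and 4 had 10.7, 9.28 and 3.87 FPKM. NC-chow mouse 1 and IVF-chow mouse 4 were high, IVF-chow mouse 2 was low, and the FET-chow mice lay inside the range of the IVF-chow mice. The group means were 33.2 ± 37.7, 20.6 ± 25.9 and 7.96 ± 3.62 FPKM (SD, n = 3) for NC-chow, IVF-chow and FET-chow mice, and the SD exceeded the mean for the NC-chow as well as the IVF-chow mice. In NC-chow mouse 1, Mt1 held rank 164 among the protein-coding genes, and in IVF-chow mouse 2 rank 2326. These levels rest on few fragments in the shallow libraries, about 12, 14 and 6 fragments in the FET-chow mice against about 279 in NC-chow mouse 1.

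Mt2 followed the same order in most mice, with the exception of a pair of FET-chow livers. Its level was 99.8, 4.95 and 11.6 FPKM in the NC-chow mice, in the order above, and 1.02, 11.8 and 66.4 FPKM in the IVF-chow mice. In the FET-chow group, mouse 3 had 8.38 FPKM, and the values of mice 2 and 4 were listed at 0. The highest FET-chow value lay between the values of NC-chow mice 5 and 6, so the groups overlapped. The ratio of Mt2 to Mt1 was 0.706 to 1.33 in the 7 mice with a value above 0 for both genes, including FET-chow mouse 3 at 0.903. FET-chow mice 2 and 4 were listed at 0 for Mt2 although Mt1 stood at 10.7 and 3.87 FPKM, where 1 fragment of Mt2 would be worth about 0.967 and 0.666 FPKM.

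Other well-expressed genes were also listed at 0 in these libraries. Of 1119 protein-coding genes that were above 0 in the other 7 mice with a mean there of at least 10 FPKM, 28 (2.5%) had a listed 0 in FET-chow mouse 2 and 22 (1.97%) in FET-chow mouse 4. Mt2 is among the 7 of these genes (0.626%) listed at 0 in both. Whether such a 0 is a missing transcript or a failed estimate was not tested. The share of listed 0s among genes with a lower mean, such as Igfbp1, Nfil3 and Ciart below, is not given here.

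Fkbp5 encodes a co-chaperone that lowers the affinity of the glucocorticoid receptor for its hormone and is itself induced by the receptor. Its level was 2.88, 1.22 and 1.41 FPKM in the NC-chow mice, 0.422, 1.58 and 4.08 FPKM in the IVF-chow mice, and 1.51, 0.589 and 0.0604 FPKM in the FET-chow mice. The 2 highest values belonged to the mice that were highest for Mt1 and Mt2, NC-chow mouse 1 and IVF-chow mouse 4. The lowest, in FET-chow mouse 4, was under the 0.0961 FPKM that 1 fragment of the main transcript would give there. The means were 1.84 ± 0.912, 2.03 ± 1.87 and 0.719 ± 0.732 FPKM (SD, n = 3) in NC-chow, IVF-chow and FET-chow mice.

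Tsc22d3 encodes the glucocorticoid-induced leucine zipper protein GILZ, which carries part of the anti-inflammatory action of the hormone. Its level was 3.93, 11.7 and 8.33 FPKM in the NC-chow mice, 2.18, 5.4 and 12.3 FPKM in the IVF-chow mice and 4.85, 5.03 and 1.91 FPKM in the FET-chow mice. NC-chow mouse 1, high for the metallothioneins, was the lowest of its group for Tsc22d3. The means were 8 ± 3.92, 6.62 ± 5.15 and 3.93 ± 1.75 FPKM (SD, n = 3). With each library rescaled to the same total over nuclear protein-coding genes, Tsc22d3 was more even, at 41.9 to 85 in NC-chow, 49.4 to 55.7 in IVF-chow and 38.9 to 53.1 in FET-chow mice.

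Sgk1 encodes a kinase that acts on ion channels and transporters and that is induced by glucocorticoids, mineralocorticoids and cell stress. Its level was 0.695, 0.744 and 0.861 FPKM in the NC-chow mice, 0.311, 1.45 and 6.24 FPKM in the IVF-chow mice and 0.823, 2.89 and 0.917 FPKM in the FET-chow mice. The NC-chow mice were close together, and the single high value was that of IVF-chow mouse 4. The means were 0.767 ± 0.0854, 2.67 ± 3.15 and 1.54 ± 1.16 FPKM (SD, n = 3). Sgk1 was thus the only member whose mean was lowest in NC-chow mice, and its FET-chow and NC-chow values overlapped as deposited. Rescaled in the same way as Tsc22d3, Sgk1 was at 5.39 to 7.41 in NC-chow, 7.94 to 27.1 in IVF-chow and 9.01 to 22.3 in FET-chow mice, so that NC-chow mice overlapped with neither other group, beside 16.2% of all genes without overlap in IVF-chow versus NC-chow and 21.5% in FET-chow versus NC-chow on that scale. The value of FET-chow mouse 2 rests on about 4 fragments and that of IVF-chow mouse 2 on about 6.

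**Figure D1:**
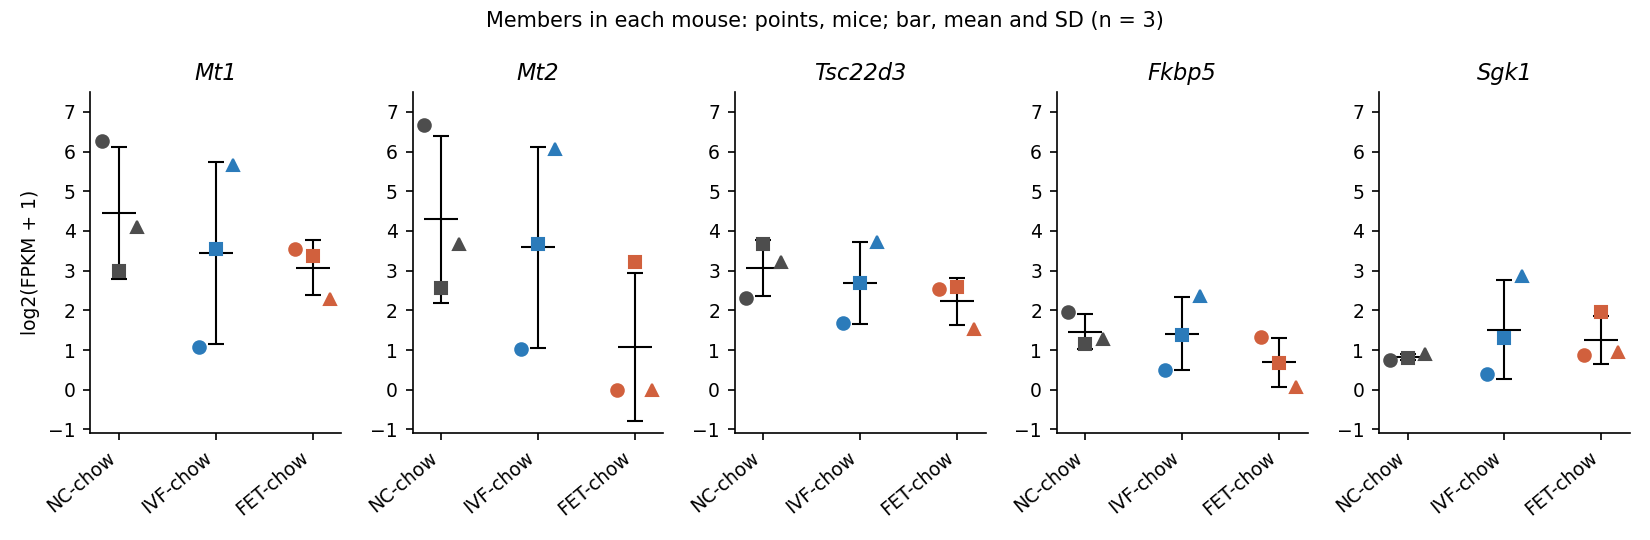
Level of each member in each mouse, as log2(FPKM + 1), with the mean and SD of the 3 mice of a group. With FPKM as deposited, the FET-chow mice lie within or overlap the range of the other groups for every member, and Mt2 is at 0 in FET-chow mice 2 and 4.

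The question put to the groups was whether conception by IVF-ET or IVF-FET was followed by other levels of these genes in the adult liver. No member was past an adjusted p of 0.05 in any of the 3 comparisons by limma on log2(FPKM + 1) over 6755 genes. Of all genes tested, 16 (0.237%) were past it for FET-chow versus NC-chow, 4 (0.0592%) for IVF-chow versus NC-chow and 6 (0.0888%) for FET-chow versus IVF-chow. At an unadjusted p under 0.05, Mt2 was the only member in FET-chow versus NC-chow, where 12% of all genes were called so, and in FET-chow versus IVF-chow, where 4.01% were. None was called so in IVF-chow versus NC-chow, where 4.07% of all genes were.

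With FPKM as deposited, the groups overlapped for every member in each comparison. Of all genes tested, 19%, 6.23% and 3.83% had groups that did not overlap in FET-chow versus NC-chow, IVF-chow versus NC-chow and FET-chow versus IVF-chow. After either scaling between libraries, Sgk1 was the member whose FET-chow and IVF-chow mice both lay above the NC-chow mice. The shares of all genes without overlap were then 21.9% and 16.3% in these 2 comparisons after median-ratio scaling, and 21.5% and 16.2% after rescaling to nuclear protein-coding genes. After median-ratio scaling FET-chow and NC-chow mice nearly met for Sgk1, at 0.715 in FET-chow mouse 2 and 0.7 in NC-chow mouse 1. The value of FET-chow mouse 2 rests on about 4 fragments. Tsc22d3 lay lower in each FET-chow than in each IVF-chow mouse after median-ratio scaling, where 13.2% of all genes had no overlap, but not after rescaling, where 12.7% had none. The FPKM of genes in general was lower in FET-chow livers, with a median log2 fold change of -0.46 over all genes tested and 74.3% of them below 0. The median was -0.25 in IVF-chow versus NC-chow and -0.20 in FET-chow versus IVF-chow. After median-ratio scaling the medians were -0.13, 0.00 and -0.13 in the same order of comparisons, with 57.2% of genes below 0 in FET-chow versus NC-chow, and after rescaling -0.18, -0.11 and -0.05, with 56.7% below 0. A value of a member stands beside the median on its own scale.

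Mt2 gave the largest estimate of the 5 in both comparisons with FET-chow mice. Its log2 fold change was -3.22 ± 1.0 (SE) in FET-chow versus NC-chow, with a 95% interval of -5.23 to -1.20 and adjusted p = 0.148 by limma, and only 0.207% of all genes tested had a lower one. In FET-chow versus IVF-chow it was -2.51 ± 1.0 with adjusted p = 1 by limma, and it ran from -1.27 without IVF-chow mouse 4 to -3.80 without IVF-chow mouse 2 and -4.56 after rescaling to nuclear protein-coding genes. Both comparisons use the same FET-chow mice, and the values of FET-chow mice 2 and 4 at 0 enter both. Without NC-chow mouse 5, Mt2 passed the threshold in FET-chow versus NC-chow, at -4.08 and an adjusted p of 0.0378 by limma, and over the other alternatives the adjusted p was 0.146 to 0.725. With a pseudocount of 0.1 the fold change was -5.36, and without NC-chow mouse 1 it was -2.04. Mt2 in IVF-chow versus NC-chow was at -0.70 ± 1.0 with adjusted p = 1 by limma, and at 0.48 without NC-chow mouse 1 and 0.58 without IVF-chow mouse 2.

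Mt1 had a fold change smaller in size than that of Mt2 in both comparisons with FET-chow mice. In IVF-chow versus NC-chow Mt1 had the larger one, beside -0.70 for Mt2. Whether Mt1 and Mt2 differ in this was not tested. The log2 fold change of Mt1 in FET-chow versus NC-chow was -1.40 ± 0.98 (SE). The interval was -3.37 to 0.57, with adjusted p = 0.594 by limma. In IVF-chow versus NC-chow the fold change was -1.03 ± 0.98 and in FET-chow versus IVF-chow -0.37 ± 0.98, adjusted p = 1 by limma in each. Without NC-chow mice 5 and 6, the FET-chow versus NC-chow value was -3.21, with NC-chow mouse 1 standing alone, while without NC-chow mouse 1 it was -0.49. The sign in IVF-chow versus NC-chow turned when IVF-chow mouse 2 was left out, to 0.15.

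Fkbp5 was at -0.77 ± 0.60 (SE), Tsc22d3 at -0.84 ± 0.76 and Sgk1 at 0.43 ± 0.61 on the log2 scale in FET-chow versus NC-chow, with adjusted p of 0.648, 0.704 and 0.823 by limma. The intervals were -1.97 to 0.44 for Fkbp5, -2.36 to 0.69 for Tsc22d3 and -0.80 to 1.67 for Sgk1, each of which includes 0. Over the alternatives the value ran from -1.69 with a pseudocount of 0.1 to -0.46 without FET-chow mouse 4 for Fkbp5. It ran from -1.22 without NC-chow mouse 1 to -0.07 without NC-chow mice 5 and 6 for Tsc22d3, and from 0.08 without FET-chow mouse 3 to 1.27 after rescaling to nuclear protein-coding genes for Sgk1, with adjusted p of 0.344 or more by limma for each of the 3. In IVF-chow versus NC-chow the values were -0.05 ± 0.60 for Fkbp5, -0.37 ± 0.76 for Tsc22d3 and 0.69 ± 0.61 for Sgk1, which was 0.02 without IVF-chow mouse 4 and 1.26 without IVF-chow mouse 2. In FET-chow versus IVF-chow they were -0.71 ± 0.60, -0.46 ± 0.76 and -0.26 ± 0.61, and that of Fkbp5 ran from -0.25 without IVF-chow mouse 4 to -1.16 without IVF-chow mouse 2 and -1.46 with a pseudocount of 0.1. All 6 of these had an adjusted p of 1 by limma.

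**Figure D2:**
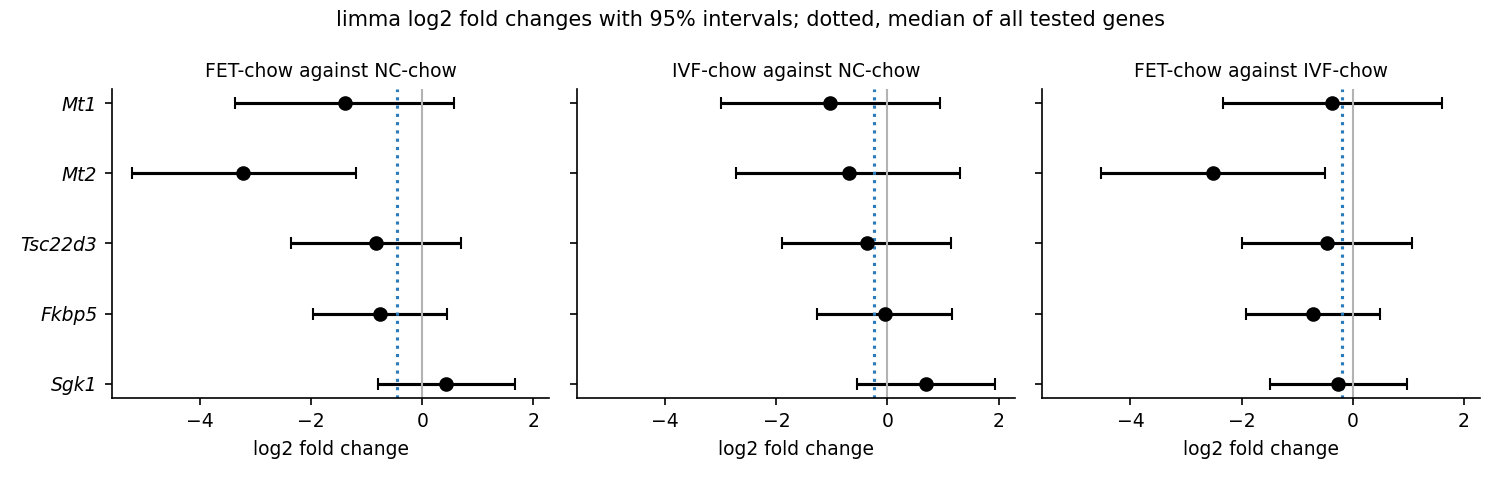
Log2 fold change of each member in the 3 comparisons, from limma on log2(FPKM + 1), with 95% intervals, and the median of all tested genes as a dotted line. The intervals include 0 for every member except Mt2 in the 2 comparisons with FET-chow mice, where they reach from -5.23 to -1.20 and from -4.53 to -0.50.

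With FPKM as deposited, the metallothioneins and Fkbp5 varied together from mouse to mouse, but no pair passed the threshold with a pseudocount of 0.1 or after either scaling between libraries. Over the 9 mice, Mt1 and Fkbp5 had a Pearson r of 0.87 (exact permutation p = 0.00329, adjusted p = 0.0261 over 10 pairs) and a Spearman rho of 0.88 (p = 0.00308, adjusted p = 0.0308). Mt1 and Mt2 had r = 0.85 (exact permutation p = 0.00522, adjusted p = 0.0261) and rho = 0.74 (p = 0.0284, adjusted p = 0.0947). Mt2 and Fkbp5 had r = 0.79 (exact permutation p = 0.0112, adjusted p = 0.0374) and rho = 0.76 (p = 0.0219, adjusted p = 0.0947). These tests are two-sided.

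The relations rested in part on the mice that were highest for Mt1 and Mt2. Without both NC-chow mouse 1 and IVF-chow mouse 4, r over the other 7 mice was 0.72 for Mt1 and Fkbp5, 0.54 for Mt1 and Mt2 and 0.49 for Mt2 and Fkbp5, with adjusted exact permutation p of 0.282, 0.362 and 0.362, and 0 of the 10 pairs passed. Without the 2 mice farthest from the median of the gene named first, r was 0.92, 0.81 and 0.94 in the same order. These mice were NC-chow mouse 1 with IVF-chow mouse 2 for Mt1 and with FET-chow mouse 2 for Mt2. For Mt2, FET-chow mouse 4 was also at 0 and equally far, and mouse 2 was left out by column order only. Without FET-chow mouse 2 alone, r for Mt2 and Fkbp5 was 0.94, and without FET-chow mouse 4 alone it was 0.73. After each group was centred on its own mean, r for the 3 pairs was 0.92, 0.89 and 0.71 in the same order. Without NC-chow mice 5 and 6 it was 0.88, 0.85 and 0.80. Leaving out 1 mouse at a time gave 0.84 to 0.89 for Mt1 and Fkbp5, 0.76 to 0.95 for Mt1 and Mt2, and 0.72 to 0.94 for Mt2 and Fkbp5. The call after adjustment was less stable with 8 mice. None of the 3 passed without IVF-chow mouse 4 (adjusted exact permutation p of 0.107, 0.107 and 0.141), without FET-chow mouse 4 (0.065, 0.0723 and 0.137) or without NC-chow mouse 6 (0.0506, 0.0506 and 0.0676). Mt2 and Fkbp5 did not pass either without NC-chow mouse 5, IVF-chow mouse 2 or IVF-chow mouse 3, at an adjusted exact permutation p of 0.0624, 0.0838 and 0.0699.

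**Figure D3:**
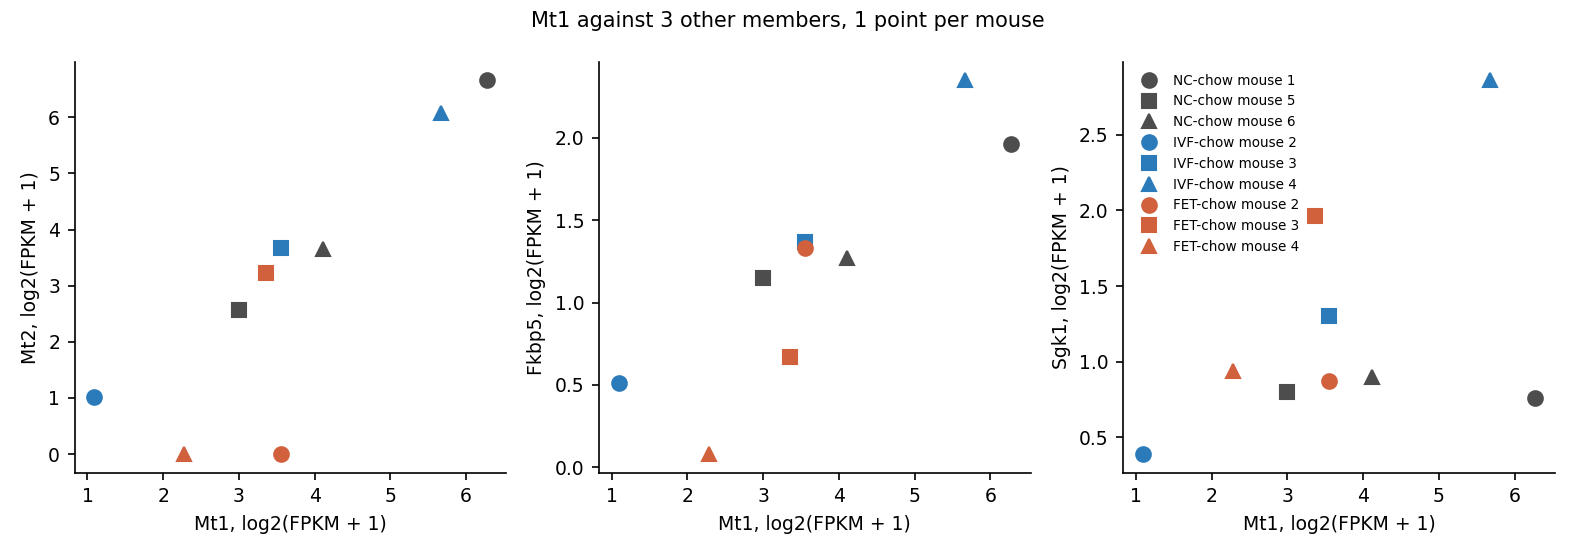
Mt1 against Mt2, Fkbp5 and Sgk1, 1 point per mouse, both axes in log2(FPKM + 1). NC-chow mouse 1 and IVF-chow mouse 4 lie at the upper right for Mt2 and Fkbp5, and NC-chow mouse 1 lies low for Sgk1, at 0.76.

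The scale of a library moved with all 5 genes, and r was computed again under other scalings. The Pearson r of each member with the log2 median-ratio factor of the library was 0.70 for Mt1, 0.58 for Mt2, 0.71 for Fkbp5, 0.90 for Tsc22d3 and 0.63 for Sgk1, given as a description. After median-ratio scaling, r was 0.69 for Mt1 and Fkbp5, 0.76 for Mt1 and Mt2 and 0.73 for Mt2 and Fkbp5, with adjusted exact permutation p of 0.144, 0.124 and 0.124. Scaled to the FPKM on nuclear protein-coding genes, r was 0.55, 0.50 and 0.59, each with an adjusted exact permutation p of 0.417. With a pseudocount of 0.1 it was 0.79, 0.70 and 0.72, each with an adjusted exact permutation p of 0.0881. The sign of these 3 relations stayed positive in all 3 settings, and 0 of the 10 pairs passed the threshold in any of them.

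None of the 7 pairs with Tsc22d3 or Sgk1 passed after adjustment, with r of 0.47 to 0.66 as deposited and exact permutation p adjusted to 0.126 to 0.206. Whether these pairs differ from the other 3 was not tested. After each group was centred on its own mean, r was 0.71 for Mt1 and Sgk1, 0.79 for Mt2 and Sgk1, 0.77 for Tsc22d3 and Sgk1 and 0.65 for Fkbp5 and Sgk1. For Tsc22d3 it was 0.40 with Mt1, 0.33 with Mt2 and 0.58 with Fkbp5. Without the 2 mice farthest from the median of the gene named first, it was -0.16 for Fkbp5 and Sgk1 and 0.39 to 0.82 for the other 6. After median-ratio scaling, r for Mt1 and Tsc22d3 was -0.39, for Tsc22d3 and Sgk1 -0.30 and for Fkbp5 and Sgk1 -0.21, the opposite sign to that with FPKM as deposited. Left without NC-chow mouse 1, 8 of the 10 pairs passed, with r of 0.79 for Mt1 and Sgk1 and 0.78 for Mt1 and Tsc22d3, each with an adjusted exact permutation p of 0.0423. The other 2 pairs, of Sgk1 with Tsc22d3 and with Fkbp5, had r of 0.50 and 0.62 there.

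**Figure D4:**
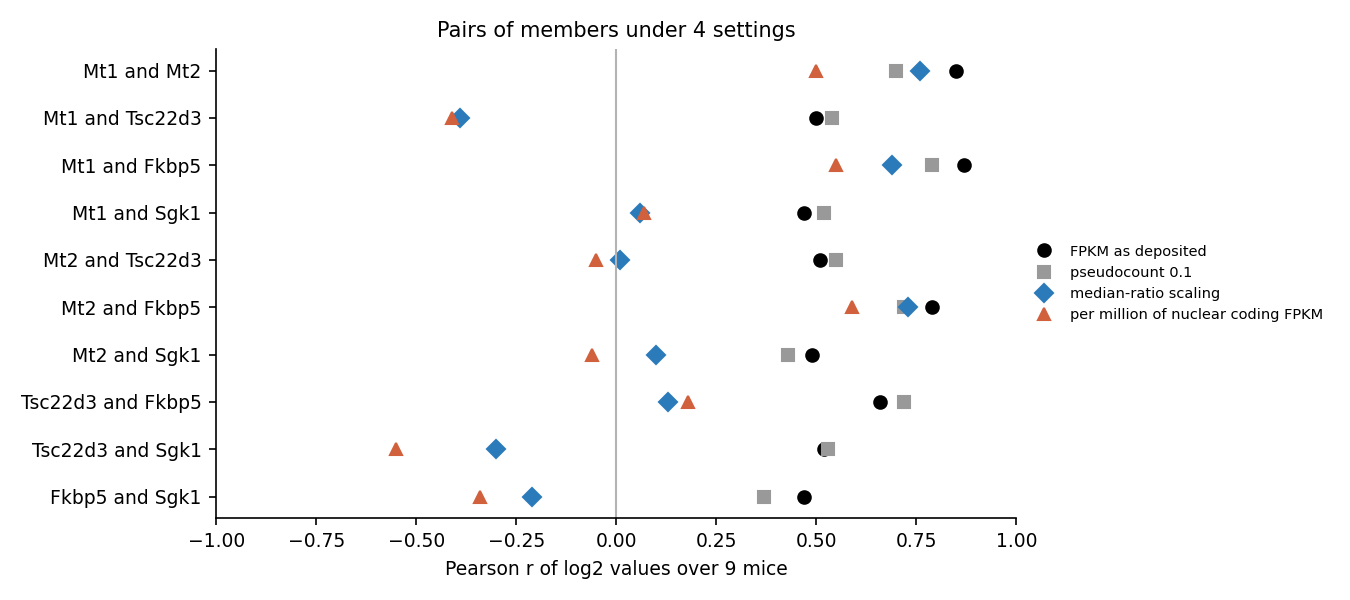
Pearson r over the 9 mice for each of the 10 pairs, with FPKM as deposited, with a pseudocount of 0.1 and under the 2 scalings between libraries. The pairs among Mt1, Mt2 and Fkbp5 stay between 0.50 and 0.87, and 5 pairs lie on both sides of 0, those of Tsc22d3 with Mt1, Mt2 and Sgk1 and those of Sgk1 with Mt2 and Fkbp5.

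The genes most like each member across the 9 mice were taken as the 3 tested genes with the highest r, as a description over values that share the library, and no function is read from it. An r above 0.9 was reached by 17 tested genes for Mt1, 39 for Mt2, 52 for Fkbp5, 386 for Tsc22d3 and 29 for Sgk1, so the 3 named stand for longer lists. For Mt2 they were Nqo1 (r = 0.974), an antioxidant quinone reductase, Tmem199 (0.971) and Nipsnap3b (0.964). Nqo1 stood at 3.9, 1.64 and 1.5 FPKM in NC-chow mice and at 0.156, 1.45 and 3.5 FPKM in IVF-chow mice, and was listed at 0 in FET-chow mice 2 and 4, as Mt2 was. Under median-ratio scaling r with Mt2 was 0.965 for Nqo1, 0.962 for Tmem199 and 0.937 for Nipsnap3b.

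For Mt1 the 3 genes were Gm3379 (0.954), Cdk5rap3 (0.948) and Gm10282 (0.948), and after median-ratio scaling r with Mt1 was 0.664, 0.855 and 0.799. For Fkbp5 they were C330018D20Rik (0.957), Manf (0.956), a secreted factor of the endoplasmic reticulum stress response, and Twistnb (0.952), at 0.945, 0.914 and 0.954 after the same scaling. For Tsc22d3 they were Ighm (0.989), the immunoglobulin mu heavy chain of B cells, Arhgef19 (0.981) and Serpina6 (0.973), the plasma globulin that carries corticosterone. After median-ratio scaling r with Tsc22d3 was 0.633 for Ighm, 0.895 for Arhgef19 and 0.798 for Serpina6. For Sgk1 they were Plac8 (0.948), Gm24865 (0.940) and Gm23823 (0.940), at 0.904, 0.796 and 0.881 after that scaling.

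Other genes that glucocorticoids induce in liver mostly had fold changes below 0 in FET-chow mice, and none was called on log2(FPKM + 1). Of 30 listed genes 19 were tested, and 18 of these had a log2 fold change below 0 in FET-chow versus NC-chow, beside 74.3% of all genes. The median was -0.90 beside -0.46 over all genes tested. On log2(FPKM + 1), no gene of the list passed the adjusted threshold of limma in any comparison, and 4 of the 19 had an unadjusted p under 0.05 in FET-chow versus NC-chow, all lower, beside 12% of all genes. The 3 largest values were those of Pck1 at -2.74 ± 1.13 (SE), the cytosolic enzyme that commits carbon to gluconeogenesis, Igfbp1, a secreted binding protein of insulin-like growth factors, and Tat at -2.08 ± 1.05, the tyrosine aminotransferase that is a classical target of the receptor. Their adjusted p by limma was 0.325, 0.124 and 0.426. Igfbp1 was listed at 0 in all 3 FET-chow mice and stood at 3.99, 4.29 and 2.26 FPKM in NC-chow mice and at 0.807, 3.41 and 14.6 FPKM in IVF-chow mice, so no fold is given for it. It passed the threshold with a pseudocount of 0.1 and after rescaling to nuclear protein-coding genes, at an adjusted p of 0.0493 and 0.0292 by limma, and over the other alternatives the adjusted p was 0.0881 to 1. After that rescaling Igfbp1 also passed in FET-chow versus IVF-chow, at an adjusted p of 0.0298 by limma. Tat stood at 97, 243 and 168 FPKM in NC-chow mice, 14.6, 40.8 and 89.7 FPKM in IVF-chow mice and 33.1, 38.1 and 38.9 FPKM in FET-chow mice, so each NC-chow mouse lay above all mice of both other groups. Of all genes tested, 19% had no overlap in FET-chow versus NC-chow and 6.23% in IVF-chow versus NC-chow. Pck1 in FET-chow mouse 2 was 1.45 FPKM beside 78.3 and 51.7 FPKM in the other FET-chow mice, and without that mouse its log2 fold change was -1.17.

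In IVF-chow versus NC-chow the median of the same 19 genes was -0.43 beside -0.25 over all genes, and in FET-chow versus IVF-chow -0.44 beside -0.20, with 2 of them at an unadjusted p under 0.05 there, beside 4.01% of all genes. After median-ratio scaling the FET-chow versus NC-chow median was -0.62 beside -0.13, and 16 of 19 lay below 0, beside 57.2% of all genes. At an unadjusted p under 0.05 by limma, 2 of the 19 were then lower and 1 higher, beside 17.2% of all genes. The counts were also 2 and 1 after rescaling to nuclear protein-coding genes, beside 15.7% of all genes. Without NC-chow mice 5 and 6 the median of the 19 genes was -0.68 beside -0.15, with 15 of 19 below 0, beside 58.1% of all genes.

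The receptor and its partners were near the general level in FET-chow versus NC-chow. Of 18 listed genes 15 were tested, and 11 were below 0 in FET-chow versus NC-chow, beside 74.3% of all genes. The median was -0.54 beside -0.46. None had an adjusted p, or even an unadjusted p, under 0.05 in that comparison by limma, beside 12% of all genes at an unadjusted p under 0.05. The receptor Nr3c1 itself was at -0.35 ± 0.60 (SE) on the log2 scale with an adjusted p of 0.86 by limma. The largest values were those of Ptges3, the co-chaperone p23, at -1.43 ± 0.90, of Serpina6 at -1.32 ± 1.03 and of Hspa8, the constitutive 70-kilodalton class heat shock protein, at -1.01 ± 1.09. Hspa8 stood at 452 FPKM in IVF-chow mouse 4, the mouse with high levels of all 5 members and the largest library factor, and at 35.2 to 177 FPKM in the others. Rescaled to nuclear protein-coding genes, Hspa8 was at 1150, 1620 and 1960 in IVF-chow mice 2, 3 and 4, at 764 to 966 in NC-chow and at 605 to 776 in FET-chow mice, so each IVF-chow mouse lay above both other groups, where 16.2% and 12.7% of all genes had no overlap in IVF-chow versus NC-chow and FET-chow versus IVF-chow. Without FET-chow mouse 4, where Ptges3 stood at 0.49 FPKM beside 12.3 and 17.9 FPKM in the other FET-chow mice, Ptges3 was at -0.30. Without NC-chow mice 5 and 6 Serpina6 was at -0.26 and Hspa8 at -0.64. Scaled to nuclear protein-coding genes, the median of the list was 0.02. The list median was 0.09 beside -0.25 in IVF-chow versus NC-chow, with 9 of 15 above 0, while 68.8% of all genes were below 0. In FET-chow versus IVF-chow it was -0.63 beside -0.20. The IVF-chow versus NC-chow median was 0.52 after median-ratio scaling, beside 0.00, and 0.42 after rescaling, beside -0.11. At an unadjusted p under 0.05 by limma, 4 and 3 genes were higher in these settings, beside 5.76% and 4.66% of all genes. Dnajb1, a co-chaperone of the 70-kilodalton class, stood at 35.4 and 72.3 FPKM in IVF-chow mice 3 and 4 and at 1.08 to 4.2 FPKM in the other 7 mice. Its log2 fold change was 2.10 ± 0.83 (SE) in IVF-chow versus NC-chow and -2.86 ± 0.83 in FET-chow versus IVF-chow, with adjusted p of 0.848 and 0.389 by limma. Without IVF-chow mouse 2, Dnajb1 passed in FET-chow versus IVF-chow, at -4.12 with an adjusted p of 0.0185 by limma.

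On log2(FPKM + 1) with FPKM as deposited, no gene of zinc and copper handling passed the adjusted threshold. Of 23 listed genes 12 were tested, and 11 were below 0 in FET-chow versus NC-chow, beside 74.3% of all genes. The median was -0.79 beside -0.46. By limma 0 passed the adjusted threshold and 1 of the 12 had an unadjusted p under 0.05, beside 12% of all genes. Mt3 and Mt4, the other metallothioneins, were at or near 0 in most mice and were not tested, and nor was Mtf1, the factor that binds the metal response element. Slc39a14, an importer of zinc, iron and manganese in hepatocytes, gave the largest value, at -2.01 ± 0.62 (SE) with adjusted p = 0.147 by limma. It stood at 3.87, 5.27 and 8.52 FPKM in NC-chow mice, 0.852, 2.6 and 4.31 FPKM in IVF-chow mice and 0.499, 1.23 and 0.329 FPKM in FET-chow mice, so the FET-chow and NC-chow mice did not overlap, as in 19% of all genes. After median-ratio scaling Slc39a14 was at -1.66 with an adjusted p of 0.0454 by limma, and over the other alternatives the adjusted p was 0.0601 to 1. Atox1, a copper chaperone, was at -1.30 ± 1.11 and Sod1, the copper-zinc superoxide dismutase, at -1.27 ± 1.08. Without FET-chow mouse 4 Atox1 was at -0.64, and without NC-chow mice 5 and 6 Atox1 was at -0.12 and Sod1 at -0.37. The median of the list was -0.36 beside -0.13 after median-ratio scaling and -0.24 beside -0.15 without NC-chow mice 5 and 6. After rescaling to nuclear protein-coding genes it was -0.26 beside -0.18, with 8 of 12 below 0, beside 56.7% of all genes.

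Among the acute phase genes, which share inducers with the metallothioneins, Saa1 and Saa2 were high in 1 control mouse. Of 23 listed genes 21 were tested, and 19 were below 0 in FET-chow versus NC-chow, beside 74.3% of all genes. The median was -0.69 beside -0.46. None passed the adjusted threshold by limma, while 4 of the 21 had an unadjusted p under 0.05, beside 12% of all genes. Saa1 and Saa2, the inducible serum amyloid A proteins, stood at 56.1 and 63.1 FPKM in NC-chow mouse 1 and at most at 7.68 and 2.38 FPKM in the other 8 mice. These genes are near-identical copies, so how fragments were split between them is uncertain. NC-chow mouse 1 is also the mouse with the highest Mt1 and Mt2. Of the 21 genes, 5 were highest in that mouse and 12 in IVF-chow mouse 4 with FPKM as deposited, while after median-ratio scaling 9 and 2 were, and after rescaling to nuclear protein-coding genes 9 and 1. Saa2 was at -2.09 ± 0.79 (SE), Saa1 at -1.81 ± 0.80 and Apcs, the serum amyloid P component, at -2.26 ± 1.01, with adjusted p of 0.274, 0.352 and 0.358 by limma. Without NC-chow mouse 1 Saa1 was at -0.48, and without NC-chow mice 5 and 6 at -4.48. Without NC-chow mouse 1, Saa2 was at -0.39 with an adjusted p of 0.797 by limma, whereas it passed without NC-chow mouse 5, at -3.18 with an adjusted p of 0.0302, and without NC-chow mice 5 and 6, at -5.50 with an adjusted p of 0.0396 by limma. Over the other alternatives the adjusted p of Saa2 was 0.126 to 0.639 by limma. Without FET-chow mouse 4, Apcs was at -1.48. The median of the list was -0.19 beside -0.13 after median-ratio scaling and -1.24 beside -0.15 without NC-chow mice 5 and 6. After rescaling to nuclear protein-coding genes it was -0.07 beside -0.18, with 12 of 21 below 0, beside 56.7% of all genes. Without NC-chow mouse 1 the list median was -0.56 beside -0.62. Of the 21 genes, 1 then had an unadjusted p under 0.05 by limma, beside 14.2% of all genes. The part of an acute phase state in the metallothionein levels of NC-chow mouse 1 was not tested.

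Markers of other cells were summed in each mouse. The 5 neutrophil markers summed to 12.1 FPKM in IVF-chow mouse 4, the highest sum, and to 0.231 and 0 FPKM in IVF-chow mice 2 and 3. They summed to 2.74, 0.367 and 2.21 FPKM in NC-chow mice 1, 5 and 6, and to 0 in all 3 FET-chow mice. The sum in IVF-chow mouse 4 came from S100a8 at 4.33 FPKM and S100a9 at 7.73 FPKM, while Retnlg, Ngp and Camp were listed at 0 there. The 9 macrophage markers summed to 26.2 to 44.7 FPKM in NC-chow, 7.83 to 63.7 FPKM in IVF-chow and 17.7 to 102 FPKM in FET-chow mice. The 8 lymphocyte markers summed to 0.742 to 3.85, 0.0433 to 3.45 and 0.382 to 0.528 FPKM. The 5 erythroid markers summed to 850 FPKM in NC-chow mouse 1, the mouse with the highest Mt1 and Mt2, and to 78 to 591 FPKM in the other 8 mice. In NC-chow, IVF-chow and FET-chow mice, the 7 endothelial markers summed to 9.21 to 14.6, 3.25 to 9.02 and 5.34 to 10.2 FPKM, the 7 stellate and fibroblast markers to 9.75 to 11.4, 4.81 to 23.2 and 6.42 to 16.9 FPKM, and the 6 cholangiocyte markers to 8.01 to 17, 1.55 to 10.6 and 1.66 to 9.71 FPKM. Their part in the member levels was not tested.

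The circadian clock genes were followed because glucocorticoids and their targets rise and fall over the day. Of 19 listed genes 14 were tested, and all 14 were below 0 in FET-chow versus NC-chow, beside 74.3% of all genes. The median was -1.17 beside -0.46. None passed the adjusted threshold of limma, and 7 of the 14 had an unadjusted p under 0.05, beside 12% of all genes. Dbp, a clock output factor, was at -2.86 ± 0.70 (SE) with an adjusted p of 0.0505 by limma, and it passed at 0.0381 without NC-chow mouse 1, while over the other alternatives the adjusted p was 0.0704 to 1. Nfil3, its repressive counterpart, and Ciart, a repressor in the clock loop, had an adjusted p of 0.0733 and 0.0736 by limma, and each FET-chow mouse was listed at 0 for both. Both passed after median-ratio scaling, at 0.0282 and 0.0368, and after rescaling to nuclear protein-coding genes, at an adjusted p of 0.0158 and 0.0453 by limma. Nfil3 also passed with a pseudocount of 0.1, at 0.0446, and Ciart without NC-chow mouse 1, at an adjusted p of 0.0393 by limma. In FET-chow versus IVF-chow Nfil3 passed after rescaling, at an adjusted p of 0.0298 by limma. Over the other alternatives the adjusted p was 0.0793 to 1 for Nfil3 and 0.0771 to 0.869 for Ciart. Nfil3 stood at 2.99 to 4.87 FPKM and Ciart at 2.44 to 4.7 FPKM in NC-chow mice. Dbp stood at 12.9, 20.5 and 21.5 FPKM in NC-chow mice, 1.28, 0.552 and 3.26 FPKM in IVF-chow mice and 1.82, 0.611 and 2.89 FPKM in FET-chow mice, so that NC-chow mice overlapped with neither of the other groups, beside 19% and 6.23% of all genes in these 2 comparisons. The median of the list in IVF-chow versus NC-chow was -0.78 beside -0.25, and 12 of 14 were below 0, beside 68.8% of all genes. In that comparison 5 of the 14 were lower at an unadjusted p under 0.05 by limma, beside 4.07% of all genes. In FET-chow versus IVF-chow the list median was -0.18 beside -0.20, with 9 of 14 below 0, beside 65.4% of all genes. There 1 of the 14 had an unadjusted p under 0.05 by limma, beside 4.01% of all genes. After median-ratio scaling the FET-chow versus NC-chow median of the list was -0.73 beside -0.13 for all genes, with 12 of 14 below 0, beside 57.2%. After rescaling the list median was -1.13 beside -0.18, with 11 below 0, beside 56.7% of all genes. Without NC-chow mice 5 and 6 it was -0.87 beside -0.15, with 10 below 0, beside 58.1% of all genes. The 7 genes at an unadjusted p under 0.05 by limma became 6 after median-ratio scaling, beside 17.2% of all genes. After rescaling they became 4, beside 15.7% of all genes. The clock time at which the livers were taken is not given in the sources used here, and its part in the levels of the members was not tested.

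**Figure D5:**
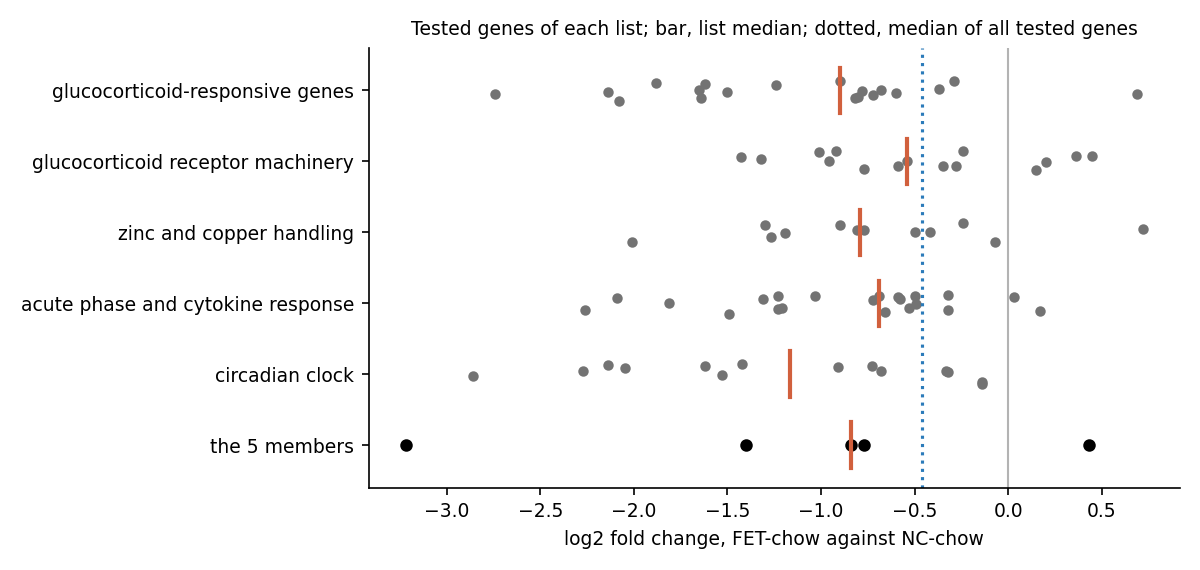
Log2 fold change of the tested genes of each list and of the 5 members in FET-chow versus NC-chow, with the median of each as a bar and the median of all tested genes, -0.46, as a dotted line. The medians run from -0.54 for the receptor machinery to -1.17 for the circadian clock, and the median of the members is -0.84.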

How the data were processed

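Liver RNA of 9 mice was sequenced on an Illumina instrument. The authors trimmed the reads, mapped them to the genome and deposited FPKM values, 1 column per mouse. The submitters' processing notes name FastQC 0.11.5, STAR 2.5.3a, StringTie 1.3.1c and DESeq2 1.16.1 without their roles, and the build is not given in the sources used here. Of 55335 identifiers, 55154 matched GENCODE vM21 of GRCm38.

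Groups followed the labels. For the 6755 genes whose mean over all mice reached 1 FPKM, log2(FPKM + 1) was fitted in limma 3.58.1 (R 4.3.3, trend, 3 groups in 1 model, two-sided, Benjamini-Hochberg over all genes tested, threshold 0.05), so a fold change understates that of low genes. All 5 members passed this filter. The table holds no counts, so no count model was run. Depth was estimated from whole-fragment steps with a tolerance of 2%, and 51.1% to 62.8% of low values lay on a step. The depth step and the limma step were tested on simulated data. Pairs of members were tested by exact permutation over 9 mice.

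The members and gene lists were chosen with earlier results of these data known. In each of the 5 lists the genes named are those past the threshold, of which there were 0, and the 3 with the largest absolute fold change in FET-chow versus NC-chow, and for each member the 3 genes with the highest r. Nr3c1, Dnajb1, Mt3, Mt4 and Mtf1 were named after their values were seen. Alternatives were another pseudocount, no filter, 2 scalings between libraries, only the groups compared, a replicate block, and leaving out mice.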

Additional observations from a re-analysis of the deposited data

How the results depend on the processing

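The 15 log2 fold changes of the members were recomputed in 180 alternative fits, of which 164 kept their direction and their side of the threshold. Mt2 in FET-chow versus NC-chow crossed the threshold without NC-chow mouse 5, so the members called were 0 to 1 over the fits that left out 1 mouse, with log2 fold changes of Mt2 of -4.29 to -2.04. Signs turned in 15 of the 180 fits, and the cause was not tested. In IVF-chow versus NC-chow, leaving out 1 mouse gave -2.14 to 0.15 for Mt1, -1.95 to 0.58 for Mt2, -0.89 to 0.14 for Tsc22d3 and -0.52 to 0.40 for Fkbp5. There Fkbp5 was 0.05 after median-ratio scaling and 0.04 after rescaling to nuclear protein-coding genes, and Tsc22d3 was 0.39 without NC-chow mice 5 and 6, an alternative chosen after seeing the data, in which NC-chow mouse 1 is assumed to vary like the other groups. In FET-chow versus IVF-chow, leaving out 1 mouse gave -1.55 to 0.75 for Mt1, -0.98 to 0.05 for Tsc22d3 and -0.82 to 0.41 for Sgk1, and rescaling gave 0.07 for Mt1 and 0.15 for Sgk1.

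Genes called in FET-chow versus NC-chow, 16 as reported, were 26 after median-ratio scaling, 0 without a filter, 0 with only the groups compared, 6 without NC-chow mice 5 and 6, and 1 to 83 leaving out 1 mouse. In IVF-chow versus NC-chow, 4 became 0 with a pseudocount of 0.1, without a filter, under both scalings and with only the groups compared, 2 without NC-chow mice 5 and 6, and 0 to 24 leaving out 1 mouse. In FET-chow versus IVF-chow, 6 became 0 without a filter and with only the groups compared, and 0 to 10 leaving out 1 mouse. The deviations of same-numbered IVF-chow and FET-chow mice from their group means correlated at -0.13, 0.02 and -0.26. Those of mice with different numbers correlated at -0.14 to 0.29. With 3 mice in a group these values cannot decide whether the shared replicate numbers pair the mice. With the replicate number as a block, 2 genes and 0 members were called.

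Of the 10 pairs of members, 3 passed as reported, 0 with a pseudocount of 0.1 or under either scaling, and 0 to 8 leaving out 1 mouse, an alternative chosen after seeing the data, with 0 without IVF-chow mouse 4, FET-chow mouse 4 or NC-chow mouse 6 and 8 without NC-chow mouse 1. Without both NC-chow mouse 1 and IVF-chow mouse 4, also chosen then, 0 passed. After median-ratio scaling r turned to -0.39 for Mt1 and Tsc22d3, -0.30 for Tsc22d3 and Sgk1 and -0.21 for Fkbp5 and Sgk1. After rescaling it turned to -0.41, -0.55 and -0.34 for these pairs, -0.05 for Mt2 and Tsc22d3 and -0.06 for Mt2 and Sgk1. Leaving out 1 mouse gave -0.09 to 0.64 for Fkbp5 and Sgk1. The genes called in the lists for FET-chow versus NC-chow, 0 in each, became 1 glucocorticoid-responsive gene with a pseudocount of 0.1 or after rescaling, 1 zinc and copper gene after median-ratio scaling, 1 acute phase gene without NC-chow mice 5 and 6 and 0 to 1 leaving out 1 mouse, and for the circadian clock 1 with a pseudocount of 0.1, 2 under either scaling and 0 to 2 leaving out 1 mouse. These list counts, and the overlap of groups after scaling, were added after seeing the data. In the shallow FET-chow libraries Mt1 rests on about 6 to 14 fragments, and the part of depth in what was called was not tested.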
